A study of Mus musculus with 24 samples.

Results

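Astrocytes sorted from the cortex were compared between 3 control libraries and 3 libraries labelled knockout for Nfia, which are 6 of the 24 libraries of the series and were chosen by their titles. The controls came from NFIAfl/fl; Aldh1l1-GFP mice, in which both copies of Nfia carry loxP sites and no recombinase is present. The libraries labelled knockout came from NFIAfl/fl; Aldh1l1-CreER; Aldh1l1-GFP mice, which also carry an inducible Cre driven by the Aldh1l1 promoter. All mice were C57BL6 and 20 weeks old and carried a GFP reporter under the same promoter. Cells were sorted by flow cytometry, and the gate is not given in the sources used here. No label used here states an inducer, the time of induction, the sex, or whether a library held 1 animal or several, so p-values measure the spread between libraries. The other 18 libraries come from olfactory bulb, hippocampus and brainstem of the same 2 genotypes and are used only to set the cortical changes beside those of other regions.

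NFIA belongs to the nuclear factor I family of transcription factors, which bind DNA as dimers at a palindrome whose arms begin with TTGGC. In the embryonic nervous system it acts with Notch signalling and SOX9 at the switch from making neurons to making glia, and it promotes expression of astrocyte genes such as Gfap. Adult cortical astrocytes clear glutamate and potassium, supply neurons with lipids and metabolites, and release factors that act on synapses and vessels.

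The targeted gene was examined first. Nfia (chromosome 4, 97772734 to 98118874, + strand, GRCm38) stood at 4534, 5183 and 5526 normalised reads in controls 1 to 3 and at 7902, 8906 and 8294 in the libraries labelled knockout 1 to 3. Every library labelled knockout lay above every control, a difference of 0.72 on the log2 scale (SE 0.11; limma, adjusted p = 0.000553). It passed whichever library was left out, and did not pass in a fit of all 24 libraries with 1 shared spread (adjusted p = 0.0847). A normalised read is a read divided by 1 factor per library, and all fold changes are on the scale of log2 of that value plus 5, labelled knockout minus control. These reads were counted over the whole gene, so they do not separate a transcript that lacks a deleted exon from an intact one, and the direction goes against a loss of Nfia RNA. The libraries are therefore called labelled knockout throughout. Of the relatives, Nfib averaged 2299 ± 108 in the control group and 2945 ± 195 in the other (mean ± SD, n = 3), a difference of 0.36 that did not pass (adjusted p = 0.115). Nfic (0.25, adjusted p = 0.511) and Nfix (-0.06, adjusted p = 0.932) did not pass either.

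The libraries held 3287872 to 7179349 reads, of which the ribosomal RNA precursor Rn45s took 17.7% to 20.9%. The label of astrocyte was borne out by the markers, which do not measure purity. All 38 astrocyte markers of the list were above 0 in every library, where 14267 to 15239 genes in all were above 0. The glutamate transporter gene Slc1a2 ranked 1 of 23309 genes per kilobase of exon in the controls. Control 1 stood apart in a pair of ways. It was the 1 cortical library with the Y-linked genes Ddx3y, Uty and Kdm5d, at 576, 135 and 165 normalised reads where the other 5 were at 0, and had 0 of Xist, the RNA that silences an X chromosome, where the others had 233 to 1155. It also held choroid plexus RNA: Ttr, the transthyretin gene, read 48254, 3325 and 1052 in controls and 1954, 5769 and 218 in libraries labelled knockout. The 18 choroid plexus markers together summed to 78093, 6928 and 2824 in controls and to 4527, 9950 and 927 in libraries labelled knockout. All 12 tested markers had negative fold changes, with a median of -1.49 that became -0.35 without control 1, and limma, edgeR and DESeq2 each called 0, with 0 at an unadjusted p under 0.05. The counts of called genes and the values of some genes are therefore also given without control 1. That leaves 5 libraries with Xist, without Y-linked Ddx3y, and at 927 to 9950 of choroid plexus markers.

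Summed markers of other brain cells were low beside the astrocyte sums of 569855 to 831701, of which Slc1a2 alone gave 259085 to 428616. Single genes were not all low. Per kilobase of exon in the controls, Ttr ranked 5 with control 1 included. The oligodendrocyte gene Mbp ranked 60 and the astrocyte gene Aqp4 70. Some sums also differed between libraries. Endothelial markers summed to 1806, 684 and 2166 in controls and to 1124, 3048 and 4041 in libraries labelled knockout. All 15 were tested and positive, with a median of 0.61, and 0 were called by the same 3 tools or had an unadjusted p under 0.05. The library labelled knockout 1 lay within the range of the controls here, and also for mural cell markers (874 against 775 to 1141). Mural cell markers, from pericytes and smooth muscle, had a median of 0.70 over 7 tested genes and reached 2200 in the library labelled knockout 2, where the smooth muscle genes Myh11 and Acta2 were at 176 and 129 against at most 23.8 and 13.7 elsewhere. Neuron markers summed to 6472 to 8147 in controls and to 4948 to 6027 in the others, so the summed values did not overlap. Most of each sum was Camk2a, at 4096, 3626 and 4426 in controls and 3184, 2855 and 3502 in the others. Snap25 came next, at 985, 1198 and 1397 against 837, 655 and 961. The sum therefore does not stand for the whole list. Over 19 tested neuron markers the median was -0.30, and the groups did not overlap in 4. Of these 0 were called by limma and edgeR, 1 by DESeq2, and 5 had an unadjusted p under 0.05. Microglia (3699 to 5045 against 3433 to 5444) and oligodendrocyte markers (16820 to 26150 against 13084 to 27497) overlapped between the groups. In bulk RNA of this kind, fewer cells of a type and less RNA per cell cannot be told apart.

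**Figure D1:**
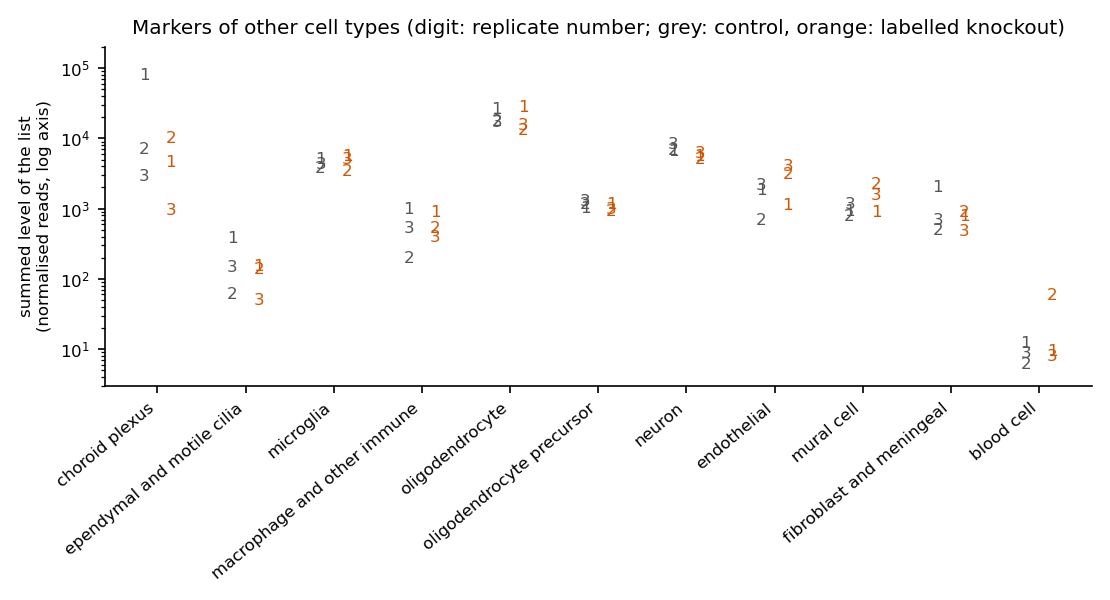
Summed level of the markers of each cell type other than astrocytes (normalised reads, log axis) in the 6 cortical libraries, with the replicate number as the plotted digit, controls in grey and libraries labelled knockout in orange. Control 1 stands highest for choroid plexus at 78093. The neuron markers, whose sum is mostly Camk2a, are the 1 list in which the summed values of the groups do not overlap.

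Of 10367 genes tested, 176 passed at an adjusted p of 0.05 (1.7%), 80 higher (0.772%) and 96 lower (0.926%) in the libraries labelled knockout. Every count of called list members below is to be set beside these shares. The lists were chosen with earlier results of these data known, so their counts are a description. In all 176 the 3 libraries labelled knockout lay outside the range of the 3 controls, which was so for 15.2% of all tested genes. The decreases were the larger changes: 56 of the 96 lower genes and 30 of the 80 higher ones moved by more than 1 on the log2 scale, with medians of -1.11 and 0.84. Over all tested genes the median was 0.01. Leaving out each library in turn, 55 genes passed in all 6 fits and 12 in none. Below, where a gene missed in any of these fits, the number it passed is given with its largest adjusted p and the library then left out. The count fell to 91 without control 2, 79 without control 3, 89 without the library labelled knockout 2 and 103 without the library labelled knockout 3. It was 211 without control 1 (2.04%), among them 140 of the 176, with 74 higher (0.714%) and 137 lower (1.32%). Of the 75 called genes that the naming rule picked, 60 passed without control 1. Shroom3, Slc41a2, Fzd2, Aldh1l1, Sall3 and Chrdl1, described below, were among those that did not. In the fit of all 24 libraries, which has the same cortical fold changes but estimates 1 spread over the 4 regions, 41 of the 176 passed.

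**Figure D2:**
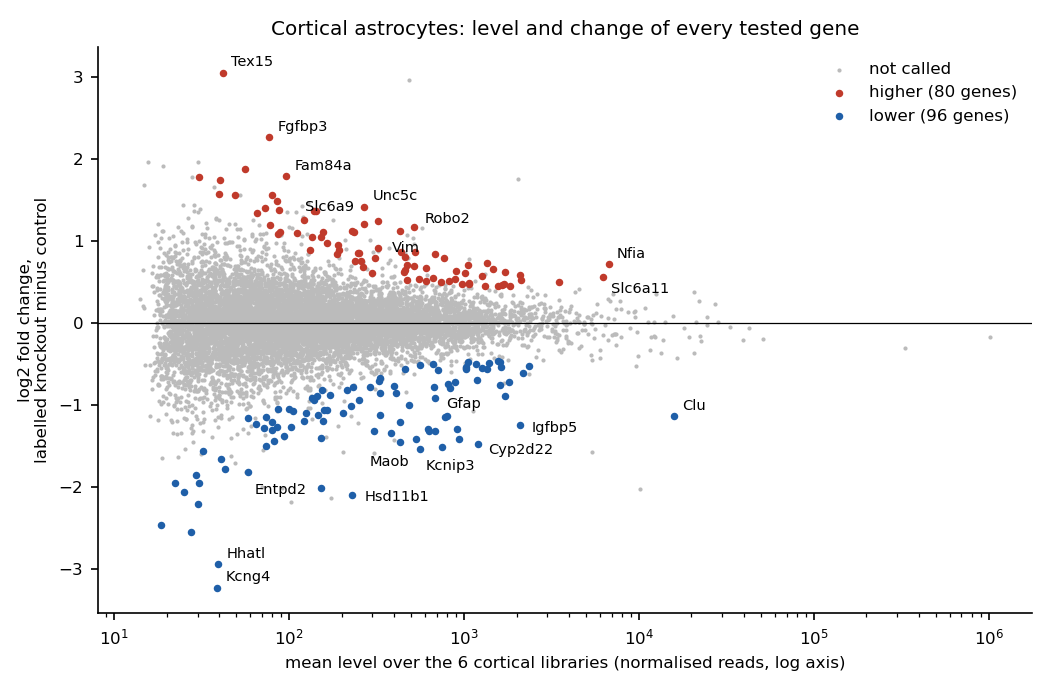
Each point is 1 of 10367 genes, placed by its mean level over the 6 cortical libraries (normalised reads, log axis) and its log2 fold change, labelled knockout minus control. The 80 genes called higher are red and the 96 called lower blue, with Clu at the high end of expression and Kcng4, Hhatl and Tex15 at the extremes of change.

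The gene with the largest decrease was Kcng4, a modulatory subunit of voltage-gated potassium channels, at 61.7, 106 and 54.8 in controls and 4.97, 4.59 and 0.721 in libraries labelled knockout. The last 3 values rest on 6, 3 and 1 reads. The log2 difference came to -3.22 (SE 0.46; adjusted p = 0.00036). Hhatl, a relative of the enzyme that acylates Hedgehog proteins, went from 73.5 ± 7.32 to 5.50 ± 3.19 (-2.94, adjusted p = 0.00036). Hsd11b1, whose enzyme regenerates active glucocorticoid inside cells, read 293, 440.2 and 391 in controls and 88.6, 67.4 and 94.4 in the others (-2.10, adjusted p = 4.04e-06). Entpd2, which encodes an ectonucleotidase of the cell surface that breaks down ATP, read 221, 290.2 and 234 against 62.1, 55.1 and 56.2 (-2.00, adjusted p = 1.24e-05). For these 4 genes every control was at least 3 times any library labelled knockout, and each passed in all 6 fits with a library left out.

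The other large decreases were at low levels and depended more on single libraries. Outside the rule for naming genes, which asks for a mean of 20 and skips unnamed gene models, Adamtsl3 (-2.46) and the model E030003E18Rik (-2.21) fell too, passing in 2 and 4 of the 6 fits, up to 0.116 and 0.0783 without control 3. The promoter listed for E030003E18Rik ends at position 20492714 of chromosome 19, next to the annotated start of Aldh1a1 (20492715, same strand), a gene described below. Whether their decreases share reads was not tested. Extl1, a glycosyltransferase gene of the exostosin family, read 37.7, 55.6 and 52.4 against 0, 1.53 and 18.0, where the first library labelled knockout had 0 reads and the third 25 (-2.54, adjusted p = 0.0177). It passed in 3 of the 6 fits, up to 0.114 without control 3. Shroom3, an actin-binding regulator of cell shape (-2.06), and Gfpt2, which starts hexosamine synthesis (-1.85), each passed in 1 of the 6 fits, with adjusted p of up to 0.193 and 0.177 without control 3. Thbs4, a secreted thrombospondin (-1.95, up to 0.278 without control 3), and the magnesium transporter gene Slc41a2 (-1.65, up to 0.177 without control 3) passed in 2. Adamtsl5, a secreted ADAMTS-like protein gene (-1.77), passed in 3 and missed at 0.0825 without control 3. Icosl, the ligand of the T cell receptor ICOS (-1.95), and Kcnt1, a sodium-activated potassium channel gene (-1.56), passed in 0, with adjusted p of up to 0.298 without control 3 and 0.163 without control 2. Arc, an immediate early gene of neurons, read 55.7, 128 and 99.9 against 22.4, 18.4 and 25.2 (-1.82, adjusted p = 0.00681) and passed in 4, up to 0.0765 without control 2.

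**Figure D3:**
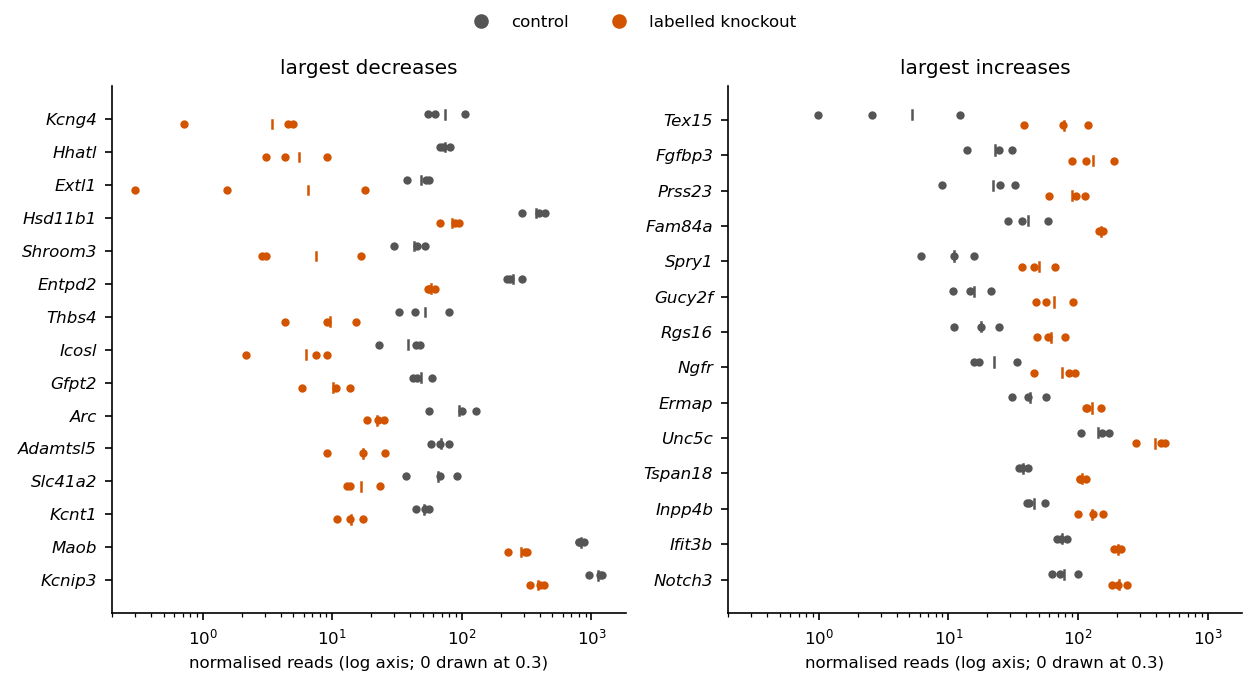
Normalised reads (log axis) of the 15 genes with the largest decreases and 14 of the 15 with the largest increases among named genes with a mean of at least 20, 1 point per library with controls in grey and libraries labelled knockout in orange. The short bars are group means, and in no gene do the groups overlap.

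Maob and Aldh1a1 fell in the list of monoamine metabolism, and 3 genes in that of glucocorticoid and steroid response. Maob, whose enzyme breaks down dopamine and other amines and is abundant in astrocytes, read 803, 882 and 806 in controls and 228, 309 and 320.0 in libraries labelled knockout (-1.54, SE 0.15, adjusted p = 3.05e-06). The groups were far apart, and the gene lies on the X chromosome, so the value without the Ddx3y-bearing control 1 is also given (-1.56, adjusted p = 3.37e-07). Aldh1a1, a retinaldehyde dehydrogenase gene that also acts on aldehydes from dopamine, read 392, 556 and 720.3 against 203, 184 and 249 (-1.34, adjusted p = 0.00112). These were the 2 of 10 tested genes of monoamine metabolism that passed, and the sister gene Maoa was at -0.02. In the list of glucocorticoid and steroid response, 3 of 25 fell and 1 rose, with a median of 0.02. The 3 were Hsd11b1, Cyp2d22 (1775 ± 21.3 to 638 ± 52.0, -1.47, adjusted p = 3.04e-07) and Cyp4f14 (224 ± 27.7 to 81.8 ± 10.1, -1.40, adjusted p = 0.000756), the last pair being cytochrome P450 genes. The 1 that rose was Hif3a, a hypoxia-inducible factor gene (1.05, adjusted p = 0.0195), which passed in 3 of the 6 fits and reached 0.109 without the library labelled knockout 2. Among the 21 genes of that list that did not pass were Sgk1 at -0.97 (adjusted p = 0.594), Mt1 at 0.18 (adjusted p = 0.672) and Per1 at 0.39 (adjusted p = 0.696), which glucocorticoids induce. In the list of thyroid hormone and retinoic acid, Aldh1a1 alone passed of 23, and 19 of the 23 fold changes were negative, with a median of -0.28.

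Among astrocyte genes of lipid transport, Clu and Lcat fell at high expression. Clu, which encodes clusterin, a secreted lipoprotein and chaperone, read 19703, 23508 and 22314 in controls and 8803, 10252 and 10763 in libraries labelled knockout. No value of one group came within a factor of 1.5 of the other (-1.14, SE 0.11, adjusted p = 3.05e-06). Lcat, whose enzyme esterifies cholesterol on lipoproteins, read 789.6, 1008 and 904 against 368, 366 and 336 (-1.32, adjusted p = 4.35e-06). The lipoprotein receptor gene Vldlr (-0.78, adjusted p = 0.0129) fell and the fatty acid binding protein gene Fabp5 (0.67, adjusted p = 0.0157) rose, passing in 3 and 2 of the 6 fits with adjusted p of up to 0.0834 without control 2 and 0.0671 without the library labelled knockout 1. These were the 4 of 48 lipid genes called, with a median of -0.12 and 33 negative values. Of 26 genes of cholesterol synthesis, 0 were called (5 at an unadjusted p under 0.05, 0 by edgeR and 1 by DESeq2), with a median of 0.14 and the regulator Srebf2 at 0.43 (adjusted p = 0.0938).

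Of the 38 astrocyte core markers 30 had negative fold changes, with a median of -0.18, and 5 were called. Gfap, the intermediate filament of astrocytes, read 959, 704 and 1041 in controls and 437, 534 and 448 in libraries labelled knockout (-0.91, SE 0.15, adjusted p = 0.00155). In the fit of all 24 libraries it did not pass (adjusted p = 0.1). S100b, a calcium-binding protein gene, went from 2648 ± 454 to 1725 ± 237 (-0.61, adjusted p = 0.0218), passing in 3 of the 6 fits and missing at 0.122 without control 2. It overlaps Dip2a on the opposite strand, and whether reads were counted by strand is not given in the sources used here. Clu and Lcat were the other decreases. Aldh1l1, the gene whose promoter drives both transgenes, rose from 897 ± 125 to 1256 ± 26.8 (0.49, adjusted p = 0.0402), passed in 1 of the 6 fits and missed at 0.212 without control 3. The libraries labelled knockout carry 1 more Aldh1l1 transgene than the controls, and its part in these reads was not tested. The glutamate transporters Slc1a2 (-0.30, adjusted p = 0.384) and Slc1a3 (0.23, adjusted p = 0.395), the connexin gene Gja1 (-0.16, adjusted p = 0.704) and the glial transcription factor gene Sox9 (-0.18, adjusted p = 0.628) did not pass. Without control 1, 7 of the 38 were lower and 0 higher, Slc1a2 among the lower (adjusted p = 0.0104).

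Of the intermediate filament genes, Vim rose and Gfap fell. Vim, the vimentin of immature and reactive astrocytes, read 295, 219 and 291 in controls and 491, 773 and 525 in libraries labelled knockout (1.12, adjusted p = 0.00138). With Gfap it made the 2 of 9 filament genes called, with a median of -0.02. Nes, the nestin of progenitors, was at 0.50 (adjusted p = 0.66). Vim is also expressed by vessel and choroid plexus cells, whose marker sums are given above; their part was not tested. Of 18 genes of reactive astrocytes, C4b alone passed, and it fell (-1.19, adjusted p = 0.019). C4b, a complement component gene, read 238, 112 and 173 against 72.9, 68.9 and 69.9, passing in 2 of the 6 fits, up to 0.1 without control 1. Serpina3n was at -1.28 (adjusted p = 0.201). The list's median was 0.17.

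The glycine transporter gene Slc6a9 and the GABA transporter gene Slc6a11 rose while the exchanger gene Slc7a11 and a GABA-B receptor gene fell. Slc6a9, the glycine transporter GlyT1, read 207, 125 and 149.9 in controls and 409, 331 and 378 in libraries labelled knockout (1.21, adjusted p = 0.00101). Slc6a11, the GABA transporter GAT3 of astrocytes, read 4282, 5700.0 and 5097 against 7620.4, 7605 and 6967 (0.57, adjusted p = 0.00928). Its groups did not overlap, and it passed in 4 of the 6 fits, up to 0.0814 without the library labelled knockout 2. Slc7a11, the cystine-glutamate exchanger, read 1758, 2326 and 1962 against 1338, 1323 and 949 (-0.75, adjusted p = 0.00826). The glutamine transporter gene Slc38a3, named here after its value was seen, was higher (0.45, adjusted p = 0.0379) and passed in 1 of the 6 fits, up to 0.17 without the library labelled knockout 3. With Maob these were the 5 of 30 called, 3 higher and 2 lower, with a median of 0.06. Gabbr2, a subunit of the GABA-B receptor, fell from 1351, 1216 and 1329 to 441, 657 and 506 (-1.29, adjusted p = 9.44e-06). The GABA-A receptor subunit gene Gabrg1 fell as well (-0.54, adjusted p = 0.0198), passing in 2 of the 6 fits and missing at 0.119 without control 3.

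Potassium and ion channel genes gave 5 decreases and 1 increase among 39, with a median of -0.17. In number these were the most decreases of any list that was described. By share, 15.4% of the list was called, against 1.7% of all tested genes. Shares were larger in smaller lists: KEOPS complex (33.3%), intermediate filament (22.2%), monoamine (20%), glutamate, GABA and glycine (16.7%) and glucocorticoid and steroid response (16%). Beside Kcng4, Kcnip3 fell: this gene encodes a calcium-binding protein that tunes Kv4 potassium channels and represses transcription, and it read 965, 1173 and 1216 in controls and 337, 404 and 427 in libraries labelled knockout (-1.51, SE 0.14, adjusted p = 2.22e-06). Slc24a3, a sodium-calcium-potassium exchanger gene, read 99.5, 114 and 119 against 34.0, 27.6 and 49.0 (-1.50, adjusted p = 0.00717), and passed in 5 of the 6 fits, up to 0.0589 without control 3. Kcnq3 (-1.27, adjusted p = 0.0353, 3 fits, up to 0.168 without control 2) encodes a channel subunit that neurons also express. The summed neuron markers, mostly Camk2a, were lower in these libraries, and their part was not tested. Kcnd3, the Kv4 channel gene Kv4.3, was the 1 increase (0.96, adjusted p = 0.01, 5 fits, up to 0.0917 without the library labelled knockout 2). It was named after its values were seen. The sodium pump subunit gene Atp1b1 was at -0.46 (adjusted p = 0.072).

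Among genes of vessels, synapses and the matrix, most calls were decreases. Apln, which encodes the vascular peptide apelin, read 695, 1177 and 1091 in controls and 406, 363 and 383 in libraries labelled knockout (-1.32, adjusted p = 0.000318). It is X-linked, and without control 1 it was -1.55 (adjusted p = 1.15e-08). Igfbp5, which binds insulin-like growth factors, read 2557, 3488 and 2739 against 1126, 1494 and 1085 (-1.24, adjusted p = 5.94e-05). With Hif3a these were the 3 of 26 angiogenic genes called, with a median of 0.09. Of 33 secreted regulators of synapses, Mfge8, a bridging protein for phagocytosis (2247 ± 346 to 1206 ± 99.8, -0.89, adjusted p = 0.00028), Thbs4 and C4b fell. Chrdl1, a BMP antagonist, rose (0.52, adjusted p = 0.0455), passed in 1 of the 6 fits and missed at 0.218 without the library labelled knockout 2. It is X-linked too, and without control 1 it was 0.36 and did not pass (adjusted p = 0.0914). The list's median was -0.13. Of 42 matrix genes, Timp2, an inhibitor of metalloproteinases (1071 ± 158 to 492 ± 129, -1.14, adjusted p = 0.00517), fell and Prss23, a secreted serine protease gene (22.2 ± 12.2 to 89.8 ± 27.5, 1.87, adjusted p = 0.0137), rose, the latter passing in 3 of the 6 fits, up to 0.114 without the library labelled knockout 2. Of 37 antioxidant genes 2 fell, Slc7a11 and the glutathione transferase gene Gstt1 (-1.23, adjusted p = 0.0259), which passed in 1 of the 6 fits and missed at 0.13 without control 2.

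The axon guidance genes Unc5c, Robo2 and Sema5a rose. Unc5c, a receptor for netrin, read 175, 152 and 105 in controls and 439, 468 and 278 in libraries labelled knockout (1.42, adjusted p = 0.00158). Robo2, a receptor for Slit proteins, read 239, 332 and 390.0 against 604, 847 and 708 (1.17, adjusted p = 0.0011). Sema5a, a semaphorin gene, read 165, 115 and 146 against 312, 392 and 251 (1.13, adjusted p = 0.00347). All 3 passed in every fit with a library left out. Dcc, the other main netrin receptor gene, fell (171 ± 36.9 to 77.9 ± 20.4, -1.10, adjusted p = 0.0221) and passed in 3 of the 6 fits, up to 0.153 without control 2. Over 48 guidance genes the median was 0.06. Of 29 progenitor and neuroblast genes 23 were positive, with a median of 0.26 that was 0.38 without control 1. Robo2 and Vim, both higher, belong to this list. Thrsp, a regulator of fatty acid synthesis, fell (-0.94, adjusted p = 0.00675) and passed in 5, up to 0.0721 without control 3. Sox4 was at 0.74 (adjusted p = 0.406) and Cd24a at 0.89 (adjusted p = 0.393), neither of them called.

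The largest increase was that of Tex15, a gene known from meiosis and transposon silencing in male germ cells. It had 3, 1 and 10 reads in the controls and 145, 25 and 107 in the libraries labelled knockout, or 2.57, 0.994 and 12.2 against 120.1, 38.3 and 77.1 normalised reads (3.05, SE 0.50, adjusted p = 0.00158). Control 1, the library with Y-linked reads, had 3 of the 14 control reads. Fam84a, whose function is little known, read 36.9, 28.8 and 58.5 against 144, 152 and 156 (1.79, adjusted p = 0.000908). The tetraspanin gene Tspan18 (1.40, adjusted p = 0.00806) and Ermap, named for red cell precursors (1.49, adjusted p = 0.00591), also passed in every fit, and the blood cell markers summed to at most 58.2 in any library, with all 4 globin genes at 0. Inpp4b, a lipid phosphatase gene (1.38, adjusted p = 0.00815), passed in 5, up to 0.0798 without the library labelled knockout 2. The nerve growth factor receptor gene Ngfr (1.56, up to 0.229 without the library labelled knockout 2) and the guanylate cyclase gene Gucy2f (1.75, up to 0.143 without the library labelled knockout 1) each passed in 2 of the 6 fits. Rgs16, which shortens G protein signalling (1.58), passed in 0, with adjusted p of up to 0.228 without the library labelled knockout 2.

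The FGF, Notch, BMP, Hedgehog and Wnt lists gave 2 calls each, among ligands, receptors and modulators. For FGF, the binding protein gene Fgfbp3 read 30.9, 13.9 and 24.4 in controls and 115, 189.8 and 89.4 in libraries labelled knockout (2.26, adjusted p = 0.000744). The feedback inhibitor gene Spry1 rose as well (11.0 ± 4.90 to 49.8 ± 14.9, 1.79, adjusted p = 0.0348) and passed in 2 of the 6 fits, up to 0.241 without the library labelled knockout 3. These were 2 of 23 FGF genes, with a median of 0.16 and the receptor genes Fgfr1 at 0.22 (adjusted p = 0.583) and Fgfr2 at 0.29 (adjusted p = 0.308). For Notch, the receptor gene Notch3 read 63.4, 99.4 and 73.1 against 183, 202 and 238 (1.36, adjusted p = 0.00176). Notch3 is also a marker of mural cells, whose summed markers were 775 to 1141 in controls and 874 to 2200 in the others; their part was not tested. The ubiquitin ligase gene Dtx4 fell (-1.07, adjusted p = 0.0402) and passed in 2 of the 6 fits, up to 0.202 without the library labelled knockout 2. Over 22 Notch genes the median was 0.10. For BMP, the ligand gene Bmp7 rose (177 ± 25.2 to 326 ± 78.3, 0.85, adjusted p = 0.0218, 2 fits, up to 0.18 without the library labelled knockout 3) together with the antagonist Chrdl1, 2 of 30 with a median of 0.10.

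For Hedgehog, Hhatl fell and the decoy receptor gene Hhip rose (69.5 ± 21.9 to 152 ± 35.6, 1.10, adjusted p = 0.0435), the latter passing in 2 of the 6 fits, up to 0.231 without the library labelled knockout 2. The other 12 of 14, among them Gli2 at -0.09 and Gli3 at 0.33, did not pass. For Wnt, the receptor gene Fzd2 rose (0.62, adjusted p = 0.0435, up to 0.18 without the library labelled knockout 2) and Lgr4, a receptor for R-spondins, fell (-0.47, adjusted p = 0.0437, up to 0.254 without control 3). They passed in 0 and 1 of the 6 fits. The secreted Wnt antagonist gene Sfrp1, named here after its values were seen, read 591, 1258 and 1008 in controls and 3026, 2872 and 3407 in libraries labelled knockout. With all 6 libraries it narrowly missed (1.76, SE 0.28, adjusted p = 0.055), and without control 1, its lowest value, it passed at 1.45 (adjusted p = 1.55e-09). Over 34 Wnt genes the median was 0.07.

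Transcription factor genes of astrocytes gave 3 increases and 1 decrease among 40, with a median of 0.09. Beside Nfia, the zinc finger genes Sall1 (372, 398 and 302 against 634, 542 and 579.5, 0.71, adjusted p = 0.0107) and Sall3 (0.69, adjusted p = 0.0386) rose. Sall1 passed in 4 of the 6 fits, up to 0.0812 without control 3, and Sall3 passed in 0 of the 6 fits, up to 0.175 without the library labelled knockout 1. Sall1 is also a marker of microglia, whose sums are given above, and their part was not tested. The homeobox gene Lhx2 fell (-0.48, adjusted p = 0.0333), passed in 1 fit and missed at 0.163 without control 2. Of 33 interferon response genes Ifit3 (60.0, 77.5 and 71.9 against 162, 176 and 184, 1.26, adjusted p = 0.00364) and Ifit3b (1.37, adjusted p = 0.00099) rose. These are near-identical copies 19.2 kb apart, so how their reads were split is uncertain, and Ifit1 (1.44, adjusted p = 0.213) and Ifit2 (1.09, adjusted p = 0.107) did not pass. The list's median was 0.15. Of 47 adhesion genes Cdh4, R-cadherin, alone passed (176 ± 29.9 to 319 ± 13.3, 0.86, adjusted p = 0.0115), and passed in 3 of the 6 fits, up to 0.0691 without control 3. The list's median was 0.03.

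Several lists held 0 calls at this size. Of 34 genes of glycolysis, glycogen and lactate, 10 had an unadjusted p under 0.05 and 0 were called by limma or edgeR (3 by DESeq2), with a median of 0.01. Of 20 circadian clock genes 0 were called by limma (6 at an unadjusted p under 0.05, and 1 each by edgeR and DESeq2), with a median of 0.17. All 5 connexin and pannexin genes had negative values, with a median of -0.16, and 0 had an unadjusted p under 0.05 or were called by any of these tools. Of 39 immediate early and dissociation genes Arc was the 1 call, with 6 at an unadjusted p under 0.05 and a median of 0.21. Of 17 genes of ATP and adenosine handling Entpd2 was the 1 call, with a median of -0.08. Tprkb, a subunit of the KEOPS complex that modifies transfer RNA, read 1005, 1209 and 1091 in controls and 459.7, 568 and 474 in libraries labelled knockout (-1.13, adjusted p = 2.07e-05), while its partner Osgep was at -0.41 (adjusted p = 0.715).

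**Figure D4:**
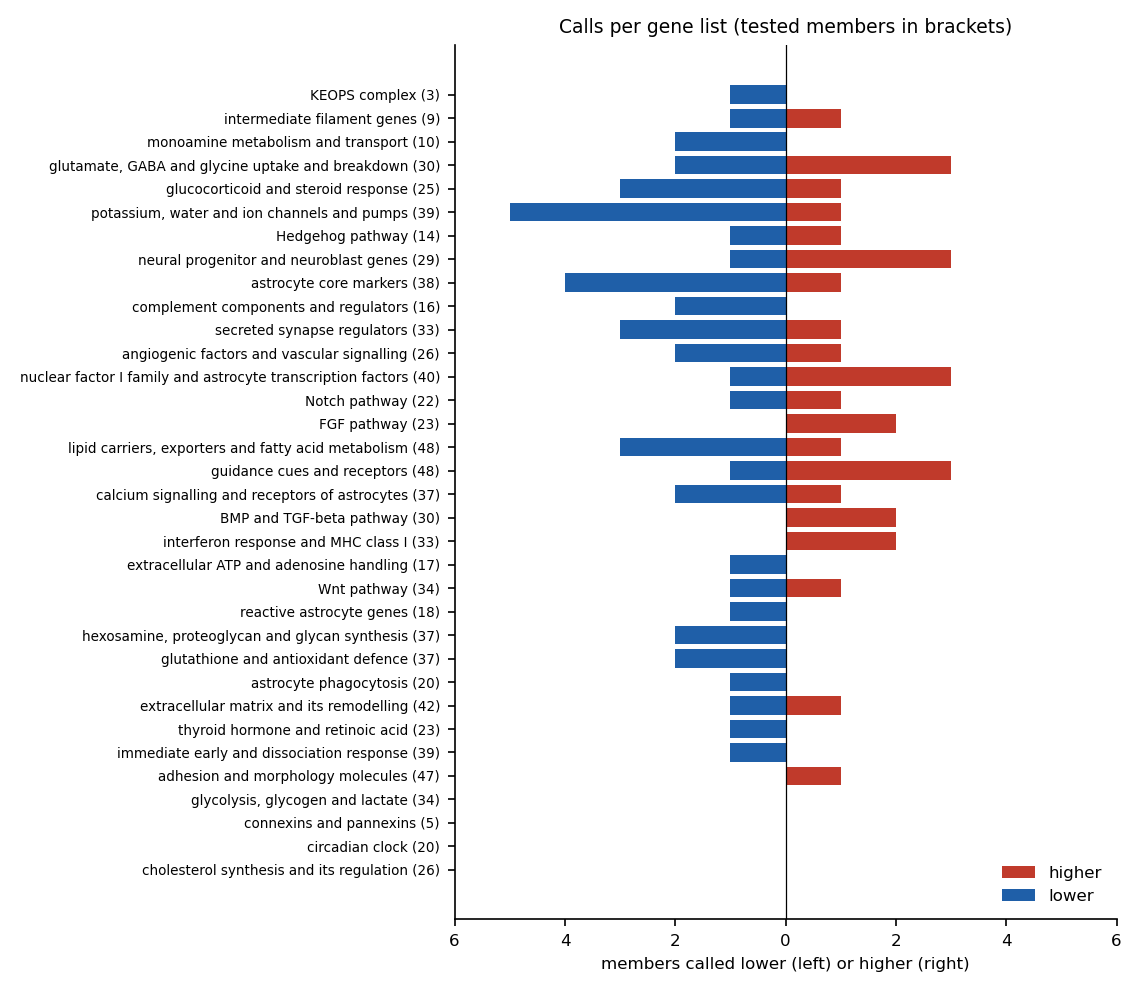
Number of members called lower (bars to the left) and higher (bars to the right) in each of 34 gene lists, with the number of tested members in brackets and the lists ordered by the share called. Potassium and ion channel genes have 5 decreases and 1 increase, and astrocyte core markers 4 and 1. Over all tested genes 1.7% were called.

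Among the genes called in all 6 fits with a library left out, 23 were higher and 32 lower. Those outside the lists were named after their values were seen. Lower were Scara3, a scavenger receptor gene (547, 697 and 667 against 263, 209.7 and 216, -1.45, adjusted p = 7.83e-06), and Cryab, the small heat shock protein alpha B-crystallin (761, 834 and 725 against 371, 279 and 227, -1.41, adjusted p = 2.15e-05). Prelp, a leucine-rich proteoglycan gene (-1.41), Padi2, a peptidylarginine deiminase gene (-1.31), the urea transporter gene Slc14a1 (-1.28), Emp2 (-1.20), Sorl1, a sorting receptor for the amyloid precursor protein (-0.77), and Mras (-0.72) were lower too. Higher were Nav1, a neuron navigator gene (166, 178 and 223 against 469, 421 and 469, 1.25, adjusted p = 0.000133), and Rpe65, the retinoid isomerase gene of the retina (109, 165 and 166 against 351, 354 and 259, 1.12, adjusted p = 0.00403). The protocadherin gene Fat4 (0.86), the protein kinase C substrate gene Marcks (0.85), the survival gene Bcl2 (0.79), Ildr2 (0.71) and Cyp2j6, a cytochrome P450 gene (0.69), were higher too. Their adjusted p ranged up to 0.006.

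Some called genes lie side by side. Of 173 called genes with a position in the annotation, 10 pairs lay within 100 kb of each other, and 9 of the 10 moved in the same direction. How often neighbours share a direction among all tested genes was not tested, so these counts are a description. The near-identical copies Ifit3 and Ifit3b are among the 10. Scara3 and Clu, both lower, lie 14.5 kb apart on chromosome 14. Aldh1l1 and Iqsec1, both higher, lie 55.9 kb apart on chromosome 6. Iqsec1 (0.45, adjusted p = 0.047) passed in 1 of the 6 fits, up to 0.3 without the library labelled knockout 2. Tprkb and Cml1, the acetyltransferase gene now named Nat8f1 (-1.12, adjusted p = 0.00675), overlap on opposite strands of chromosome 6, so their decreases may share reads. Pm20d1 and Slc41a1 lie 6.02 kb apart on chromosome 1, both lower (-1.20 and -0.53), and each passed in 2 of the 6 fits, up to 0.155 without control 2 and 0.0775 without the library labelled knockout 2. In the 1 discordant pair, Adgrb1 was higher (0.51) and Arc lower, and Adgrb1 passed in 0 of the 6 fits, up to 0.209 without the library labelled knockout 3.

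The DNA just before the start of these genes was searched for the sites that NFI proteins bind, because the library label names one of them. In the 250 bases before each start in the RefSeq promoter table (GRCm38.p6), the palindrome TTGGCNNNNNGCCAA, read on both strands, was found in 0 of 85 promoters of 59 higher genes, 0 of 92 promoters of 67 lower genes and 0.0289% of 10375 promoters of 7957 tested genes, a gene having 1 or more promoters there. The short site TTGGCA, on either strand, was in 9 of the 85 (10.6%) and 14 of the 92 (15.2%), against 9.76% of the 10375 and 12.3% of all 32851 promoters in the table. The short site of Aldh1a1 is the same stretch of DNA as that of the gene model E030003E18Rik, so it counts in both promoters among the 14. These shares are a description, and a match is not a binding site. Of the promoters with a short site, 5 belong to genes that passed in all 6 fits and have no more than 19 bases inside an annotated exon. They are printed 5′ to 3′ on the strand of the gene with the short site in capitals (TTGGCA or its complement TGCCAA):
Aldh1a1, lower, chr19:20492333-20492582, + strand: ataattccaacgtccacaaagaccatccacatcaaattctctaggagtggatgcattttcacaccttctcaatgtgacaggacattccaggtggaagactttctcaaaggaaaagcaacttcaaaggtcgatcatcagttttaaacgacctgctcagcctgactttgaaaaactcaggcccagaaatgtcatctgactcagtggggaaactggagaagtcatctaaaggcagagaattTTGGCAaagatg
Igfbp5, lower, chr1:72874866-72875115, - strand: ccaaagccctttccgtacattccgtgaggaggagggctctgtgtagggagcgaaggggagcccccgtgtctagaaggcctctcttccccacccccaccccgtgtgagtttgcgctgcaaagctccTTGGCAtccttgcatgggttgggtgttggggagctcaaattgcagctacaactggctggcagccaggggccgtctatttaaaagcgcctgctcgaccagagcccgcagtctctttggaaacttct
Prelp, lower, chr1:133921402-133921651, - strand: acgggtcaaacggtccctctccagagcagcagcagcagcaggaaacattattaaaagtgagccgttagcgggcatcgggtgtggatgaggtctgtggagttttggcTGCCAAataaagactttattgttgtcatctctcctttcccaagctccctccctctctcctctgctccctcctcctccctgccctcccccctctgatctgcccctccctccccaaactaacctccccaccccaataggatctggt
Sorl1, lower, chr9:42077214-42077463, - strand: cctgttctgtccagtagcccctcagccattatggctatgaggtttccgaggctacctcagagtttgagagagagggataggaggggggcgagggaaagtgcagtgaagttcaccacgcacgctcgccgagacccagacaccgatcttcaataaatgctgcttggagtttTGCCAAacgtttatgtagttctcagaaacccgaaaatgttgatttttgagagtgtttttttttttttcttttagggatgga
Cyp2j6, higher, chr4:96553652-96553901, - strand: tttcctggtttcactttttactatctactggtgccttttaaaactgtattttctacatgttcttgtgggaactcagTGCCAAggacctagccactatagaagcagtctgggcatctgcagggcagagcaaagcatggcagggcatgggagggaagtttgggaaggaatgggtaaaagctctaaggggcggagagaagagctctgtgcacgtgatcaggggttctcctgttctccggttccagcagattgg

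The short site began 12 bases before the listed start in Aldh1a1, 81 in Sorl1, 125 in Igfbp5, 144 in Prelp and 174 in Cyp2j6. Its place thus differed among them, and it stood before listed starts of both lower and higher genes. For Sorl1 that start lies inside the annotated gene (chromosome 9, 41964720 to 42124297, - strand) and not at its outer end.

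The cortical changes were set beside those of the other regions, each fitted on its own 6 libraries, none of them shared with cortex. Of the 80 genes higher in cortex, 70 of 79 tested had the same sign in olfactory bulb, 75 of 79 in hippocampus and 59 of 73 in brainstem. Of all genes tested in cortex and the other region, 50.2%, 52.7% and 52.2% had positive values there. Of the 80, 14 and 38 were also called in olfactory bulb and hippocampus, where 0.426% and 0.985% of all genes were called higher. Of the 96 lower genes, 87 of 91, 80 of 96 and 51 of 93 had the same sign, where 49.8%, 47.3% and 47.8% of all genes had negative values. The brainstem share of 54.8% was thus near that of all genes. Of the 96, 22 and 19 were called in olfactory bulb and hippocampus, where 0.408% and 2.65% of all genes were called lower (0.835% and 3.63% in either direction). The 18 choroid plexus markers summed to 111178 to 231209 in hippocampal controls and to 3730 to 9765 in hippocampal libraries labelled knockout, and all 18 were called there. In brainstem they summed to 80126 to 384780 and 8613 to 143494, and in olfactory bulb to 2649 to 3197 and 2655 to 3215, with 0 called in either. Their part in the counts shared with hippocampus was not tested. In brainstem limma called 0 of 11330 genes (733 at an unadjusted p under 0.05). The brainstem library labelled knockout 3 held only 1090777 reads, and brainstem controls 2 and 3 held 3098215 and 2830746. The 0 calls there therefore do not show that an effect was absent. In no region was a cortical call reversed by a call there. The same sign in all 4 regions was seen in 55 of 71 higher genes (77.5%, against 26.2% of tested genes that were higher in cortex) and in 42 of 90 lower genes (46.7%, against 21.1%). Higher in cortex, olfactory bulb and hippocampus by calls in each were Nfia, Slc6a11, Astn1 (in cortex in 3 of the 6 fits, up to 0.144 without the library labelled knockout 3), Cdh4, Prss23, Rgs16, Tex15 and Unc5c, and lower were Gfap, Kcng4, Hhatl, Apln, Cryab and Tprkb.

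**Figure D5:**
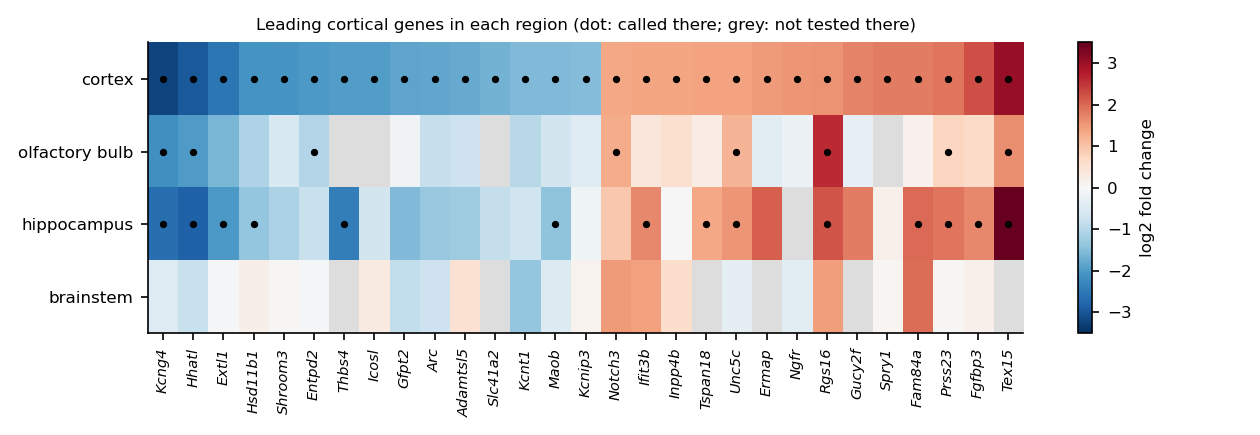
Log2 fold change, labelled knockout minus control, of 29 of the 30 leading cortical genes in the 4 regions (rows), with red for higher and blue for lower. Dots mark calls, grey cells genes not tested in a region, and in brainstem there are 0 dots.

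A direct test of whether the cortical effect differed from the mean effect of the other 3 regions, over all 24 libraries, called 2 of 12673 genes (0.0158%; 546 had an unadjusted p under 0.05). Slc14a1, the urea transporter gene, was at 882 ± 76.3 in cortical controls and 368 ± 101 in cortical libraries labelled knockout. Its log2 fold change in that fit was -1.28 in cortex, 0.45 in olfactory bulb, -0.09 in hippocampus and 0.85 in brainstem, a difference of -1.69 (SE 0.26, adjusted p = 0.00941). In the limma fits of olfactory bulb and brainstem alone, Slc14a1 did not pass (adjusted p = 0.0835 and 0.713). Kcnip3 was at -1.51 in cortex and at -0.45, -0.16 and 0.13 in the others, a difference of -1.35 (SE 0.24, adjusted p = 0.0296). Slc14a1 passed in 3 of 6 fits with a cortical library left out and Kcnip3 in 1, with adjusted p of up to 0.102 and 0.298. The next 3 by p did not pass. They were the Wnt modulator gene Dkk3 (-1.20, adjusted p = 0.0598), at -0.02 in cortex, the deubiquitinase gene Usp2 (1.00, adjusted p = 0.111) and Spata13 (1.66, adjusted p = 0.171), a guanine nucleotide exchange factor gene.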

How the data were processed

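The authors deposited a normalised signal for each of 24421 gene names, in 1 table for every library. FastQC, STAR 2.5.0a, mm10 and DESeq2 1.20.0 are listed in the submitters' processing notes with no role given, and the counter, annotation and strand setting are not given in the sources used here. Per the labels' protocols, RNA from sorted cells was purified on RNeasy Micro columns, and 5 ng entered the NuGEN Trio library preparation. Each deposited signal value multiplied by its library's factor gave whole reads (100% of values, tolerance 0.01 read), and the 6 cortical factors equalled median-of-ratios factors over those libraries.

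The cortical test kept the 10367 genes that reached 20 normalised reads in 3 or more of the 6 libraries. Values were transformed as log2(value + 5) and fitted with limma 3.58.1 under R 4.3.3 (trend and robust moderation, 4 residual degrees of freedom), two-sided, with Benjamini-Hochberg adjustment. A second fit over 24 libraries tested 12673 genes for the cortical effect minus the mean of the other 3. Exact permutation of 3 against 3 cannot go below p = 0.1. Alternatives were edgeR 4.0.16 and DESeq2 1.42.0 on recovered reads, voom, other constants and filters, a replicate block, the 24-library fit and each library left out. On simulated counts the cortical fit recovered 66 of 100 genes at a 2-fold and 96 of 100 at a 4-fold change, and 13 of its 175 calls were unchanged genes. The second fit recovered 20 and 78, and 4 of its 102 calls were unchanged genes.

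The text names 12 fixed genes (nuclear factor I family and astrocytes), the 15 higher and 15 lower called genes with the largest change and a mean of at least 20 (unnamed gene models skipped), up to 4 called members of each list or 2 where none passed, and for the second fit the 8 called genes with the smallest p, or 5 genes if fewer than 3 passed. The members, the 45 gene lists and this rule were chosen with earlier results of these data known. Positions come from GENCODE vM21 (GRCm38), which matched 23350 names. A few genes are not reported here.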

Additional observations from a re-analysis of the deposited data

Results flagged for a closer look

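The effect of the label differed between cortex and the other 3 regions for 2 genes, by a test of the difference itself in limma over 24 libraries. For Slc14a1 the cortical effect minus the mean of the others was -1.69 (SE 0.26, adjusted p = 0.00941): the level fell in all 3 cortical libraries labelled knockout below every cortical control, while the mean rose from 1640.1 to 2238 in olfactory bulb and from 1281 to 2125 in brainstem and went from 1499 to 1401 in hippocampus. For Kcnip3 the difference was -1.35 (SE 0.24, adjusted p = 0.0296), with means of 1118 and 389 in cortex, 1649 and 1212 in olfactory bulb, 1264 and 1108 in hippocampus, and 2325 and 2410 in brainstem. The difference of Slc14a1 passed in 3 of the 6 fits that left out a cortical library and that of Kcnip3 in 1. Levels are on a separate scale in cortex and are not compared across regions.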

How the results depend on the processing

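The cortical count of 176 was 175 and 174 with edgeR (TMM and RLE factors), 257 with DESeq2, 167 with voom, 168 and 180 with added constants of 1 and 20, and 170 and 174 with filters at 5 and 100. It was 64 of 17104 genes with no filter on low values, 41 with all 24 libraries in 1 fit, and 7 without trend and robust moderation, where 4 residual degrees of freedom carry each gene. With trend but without robust moderation, an alternative added after the data were seen, it was 118. Leaving out 1 library gave 79 to 211. The count of 2 genes for the difference between regions was 2 and 3 with edgeR (TMM and RLE factors), 7 with DESeq2, 3 with voom and 0 with no filter on low values, and 0 to 2 with a cortical library left out. With TMM factors only 1 of the main 2 was among those called, and with RLE factors, DESeq2 and voom both were. Of the 75 called genes that the naming rule picked, edgeR kept 72, DESeq2 74, voom 67, the fit of 24 libraries 27 and the fit without moderation 6, and none was reversed under any setting (the fit of 24 libraries has the same fold changes, so its sign could not differ). Same-numbered cortical libraries had deviations correlated at 0.08, -0.03 and 0.15, so the numbers were not taken to pair the samples. With a replicate block the counts were 237, with 170 of the 176 among them, and 3. Genes at low levels rest on few reads, so small changes among them were not detectable at this depth.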

Other observations

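Further called genes, named after their values were seen, are outside the lists. Lower in libraries labelled knockout were Papss2, which makes the sulfate donor (-0.69, adjusted p = 0.0207), Tst, the sulfurtransferase rhodanese (-0.53, adjusted p = 0.0227), and Cdo1, cysteine dioxygenase (-1.05, adjusted p = 0.0455). Gpd1, the glycerol phosphate dehydrogenase (214, 265 and 358 against 145, 107 and 126, -1.10, adjusted p = 0.00675), and Dbi, which binds acyl-CoA and gives rise to peptides that act on GABA-A receptors (-0.52, adjusted p = 0.0125), were lower too. Papss2 passed in 2 of the 6 fits with a library left out, Tst in 2, Cdo1 in 1, Gpd1 in 5 and Dbi in 3, with largest adjusted p of 0.118 without control 2, 0.127 without control 3, 0.209 without control 2, 0.0793 without control 3 and 0.078 without the library labelled knockout 3.

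Higher were Ccnd2, a cyclin of the G1 phase (803, 1043 and 1212 against 1555, 2094 and 1458, 0.74, adjusted p = 0.0386), Ptprg, a receptor tyrosine phosphatase (0.66, adjusted p = 0.00928), and Spon1, the matrix protein F-spondin (0.65, adjusted p = 0.012). They passed in 3, 4 and 4 of the 6 fits, with largest adjusted p of 0.16 without control 2, 0.0784 without the library labelled knockout 3 and 0.0631 without control 2.

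Across all 24 libraries, 6 had the Y-linked gene Ddx3y (576 to 778 normalised reads) and Xist of at most 12.9, and the other 18 had Ddx3y at 0 and Xist of 233 or more. Library 1 labelled knockout had Ddx3y in olfactory bulb (719.7) and hippocampus (589.6) and 0 in cortex and brainstem, so the same number did not mark the same sex across regions.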
